A study of Mus musculus with 18 samples.

Results

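The difference between silencing Erk3 and silencing Mk5 was described in C2C12 myotubes exposed to palmitic acid (PA). C2C12 is an established mouse myoblast line that fuses into myotubes. Confluent myoblasts were transfected with pooled siRNAs against Erk3 (siErk3), against Mk5 (siMk5) or with non-targeting siRNA (siNtc), and were used after 6 days of differentiation. The myotubes were then kept without serum for 16 h, with 0.5 mM PA carried by BSA in the PA groups and with BSA alone in the others. The comparison was made between the 3 libraries of siErk3 with PA and the 3 libraries of siMk5 with PA, which are 6 of 18 libraries in the series. The 3 siNtc libraries with PA and the 6 siErk3 and siMk5 libraries with BSA were used to place it. Poly(A) RNA was sequenced with strand kept, and 21772 of 55414 annotated genes with at least 10 read pairs in total over the 18 libraries were tested. The model is a single cell line, the silencing is transient, and the labels do not say whether libraries of a group came from separate cultures, so the p-values measure the spread between these libraries, which may be technical. In whole-culture RNA, fewer cells of a type and less RNA per cell cannot be told apart.

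Erk3 is an atypical MAP kinase encoded by Mapk6. It binds and activates the kinase Mk5, encoded by Mapkapk5, and the 2 proteins act as partners. The interferon system, to which many of the genes below belong, starts when sensors of foreign RNA or DNA induce type I interferon. Interferon then binds its receptor, the receptor-bound Jak kinases activate STAT factors, and these join Irf9 to bind promoters of antiviral genes. Non-immune cells, myotubes included, carry this response, and transfected nucleic acid is a known trigger of it.

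Mapk6 RNA, the target of siErk3, was measured at 131, 119 and 109 CPM (read pairs scaled to a common library size) in the siErk3 PA libraries and at 235, 233 and 214 CPM in the siMk5 PA libraries. The siNtc PA libraries, at 215, 236 and 244 CPM, lay at the level of siMk5. Mapk6 was thus 1.9-fold lower with siErk3 than with siMk5 (log2 fold change -0.92 ± 0.06 SE, edgeR FDR = 8.43e-13), and the libraries did not overlap. Mapkapk5, the target of siMk5, was measured at 3.24, 2.57 and 3.52 CPM with siErk3 and at 2.43, 2.33 and 2.17 CPM with siMk5. The siNtc PA libraries held 2.52, 3.92 and 3.28 CPM of it. Every siMk5 value was below every siErk3 value, but the difference did not pass the test (log2 0.41 ± 0.18, edgeR FDR = 0.405). Exact two-sided permutation of 3 against 3 libraries gave p = 0.1 for either gene, the smallest value it allows. The reading for Mapkapk5 is limited, because 56.4% of its exonic bases lie in the readthrough gene Gm42878 and read pairs overlapping both genes were not counted. The RNA counts therefore show the Erk3 knockdown and do not show the Mk5 knockdown at the test's threshold. At the protein level, the paper reports by Western blot that both kinases were silenced, and that silencing Mk5 also lowered Erk3 protein. RNA counts do not measure either protein.

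The cultures carried the labelled cell type. Ckm, Des, Myog, Acta1, Myh3, Ttn and Tnnt3, which mark differentiated muscle, were all present, with Acta1 between 2989 and 3357 CPM and Myog, the myogenic factor of differentiation, between 324 and 364 CPM in the 6 libraries. Total counts ran from 20737548 to 28496727 in siErk3 PA and from 19782395 to 22418219 in siMk5 PA. The share of counts on an 18S ribosomal RNA copy (Rn18s-rs5), a measure of how much ribosomal RNA passed the poly(A) selection, was 3.74 to 6.77% with siErk3 PA and 1.71 to 6.69% with siMk5 PA, so the groups overlapped. In the BSA libraries it was 1.5 to 2.96% with siErk3 and 8.39 to 12.87% with siMk5 and did not overlap.

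With PA, 224 genes differed between the knockdowns (edgeR FDR below 0.05 and a fold change above 1.3), which is 1.03% of the genes tested. Of these, 186 were higher with siErk3 (0.854%) and 38 were lower (0.175%). All 224 had 3 siErk3 libraries on one side of the 3 siMk5 libraries, against 14.7% of all genes tested. The higher genes had a median log2 fold change of 1.00 and a median level of 20.4 CPM with siErk3 and 10.9 CPM with siMk5. The lower genes were weakly expressed, with a median of 2.99 CPM with siErk3 and 4.84 CPM with siMk5, and their median log2 fold change was -0.66. Differences of at least 2-fold were found for 92 higher and 6 lower genes, and the median log2 fold change over all genes was -0.0029.

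Genes of the interferon response made up 94 of the 224, and all 94 were higher with siErk3. Among 8 lists of interferon genes, which run from transcription factors and sensors to effectors and MHC class I, 121 members were tested, 94 passed (77.7%), 115 lay above 0 and 6 below, and the median log2 fold change was 1.00. Irf8, H2-Q6 and H2-Q7 were under the count filter. The mean log2(CPM + 0.5) over these genes was 4.77, 4.86 and 4.88 in the siErk3 PA libraries and 4.01, 3.77 and 3.96 in the siMk5 PA libraries. The siNtc PA libraries lay between them, at 4.55, 4.39 and 4.52.

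**Figure D1:**
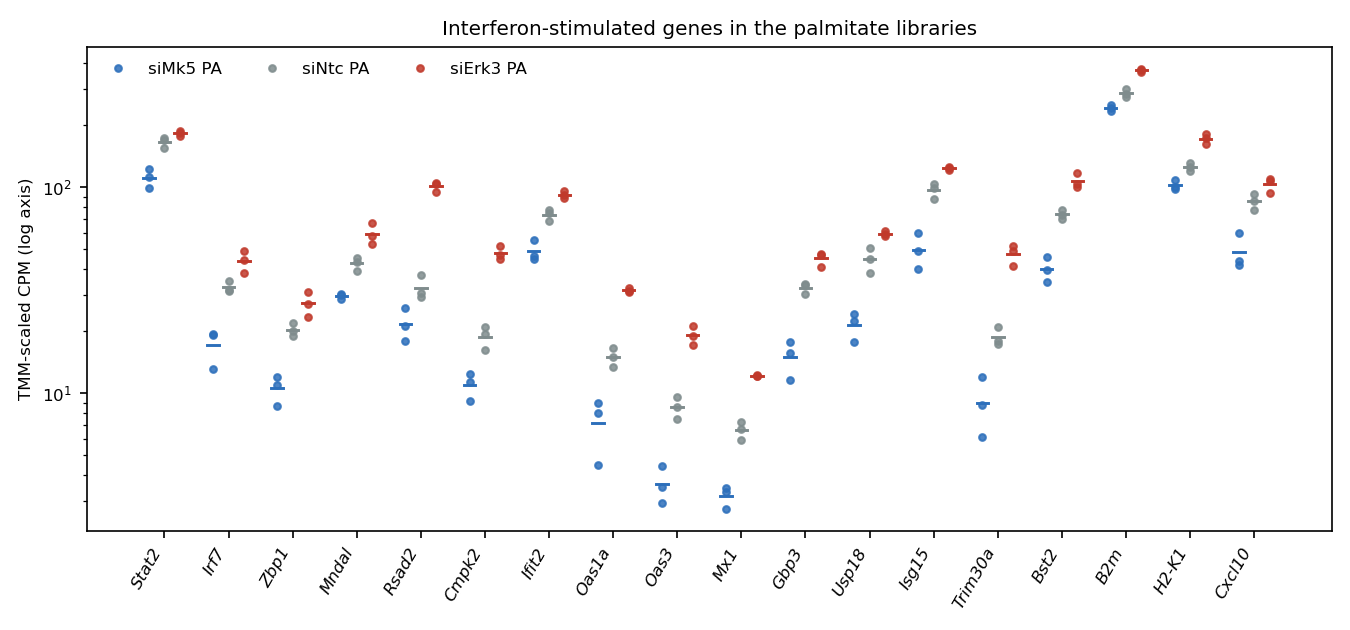
Levels in CPM (log axis) of 18 interferon-stimulated genes in each PA library, 1 point per library and a bar at the mean, for siMk5, siNtc and siErk3. In each of these genes the 3 siErk3 libraries lie above the 3 siMk5 libraries, as for Rsad2 (95.3 to 104.99 against 18 to 25.8 CPM).

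No tested gene of an interferon, an interferon receptor or a receptor-bound kinase passed the test. The nucleic acid sensors, which act before interferon, are given below. The interferon genes Ifna2, Ifna4, Ifne, Ifnk, Ifng, Ifnl2 and Ifnl3 were under the count filter and could not be tested. Of 12 tested interferons, interferon receptors and receptor-bound kinases, 0 were called by edgeR, 0 by DESeq2, and 2 had an unadjusted p under 0.05. Their log2 fold changes ran from -0.09 to 1.83 with a median of 0.05. The libraries of 5 of the 12 did not overlap, against 14.7% of all genes tested. Ifnb1, which encodes interferon beta, was near the limit of detection, at 0.219, 0.253 and 0.248 CPM with siErk3 and 0.0449, 0.0466 and 0.103 CPM with siMk5 (edgeR FDR = 0.398). The receptor chain gene Ifnar1 was measured at 82.1, 83.9 and 90.9 CPM with siErk3 and 84.4, 85.3 and 86.5 CPM with siMk5, a log2 difference of 0.00 ± 0.05.

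Below the receptor, 5 of 9 IRF and STAT factors were higher with siErk3. Irf7, which amplifies interferon induction, had 38.2, 44.4 and 49.0 CPM with siErk3 and 19.3, 13.1 and 19.3 CPM with siMk5, a 2.54-fold difference (log2 1.35 ± 0.12, edgeR FDR = 1.84e-09). Stat2 was 1.64-fold higher, its DNA-binding partner Irf9 1.49-fold and Irf1 1.31-fold. Irf2, Irf3, Irf5 and Stat3 did not pass. Irf3, which carries the first signal from the sensors and is present without interferon, was at 25.2 ± 1.20 CPM with siErk3 and 27.1 ± 1.85 CPM with siMk5 (SD, n = 3).

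The nucleic acid sensors divided in the same comparison. Of 20 tested, 13 were higher with siErk3. The RNA helicase Ifih1 was found at 124, 112 and 96.6 CPM with siErk3 and 68.9, 47.4 and 47.8 CPM with siMk5, a 2.02-fold difference. Rigi, which senses RNA with 5′ triphosphate ends, was 1.77-fold higher, Zbp1, a sensor of Z-form nucleic acid, 2.58-fold, and the Ifi200 family genes Mndal and Ifi203 2.01-fold and 1.84-fold. Sting1, Mavs, Cgas and Tbk1, which encode the DNA sensor cGAS and the adaptors and kinase downstream of the sensors, did not pass (log2 -0.03, 0.17, 0.18 and 0.04).

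The antiviral effectors had the largest median differences among the lists. Promoters of the genes with the smallest adjusted p are shown first, since many genes of this kind carry a known promoter element, the interferon-stimulated response element. A short form of it, GAAANNGAAA, was searched on both strands in the RefSeq promoter windows (250 bases before to 50 after the start; table of GRCm38.p6, with the printed windows placed in GRCm39 by exact match). It occurs in 3.44% of 32851 windows, and the related TTCNNNGAA of STAT dimers in 8.3%. Overlapping matches on 1 strand were each counted. The 6 stretches below come from genes higher with siErk3, taken in order of adjusted p among those whose window holds the motif, with the motif in either orientation in capitals, and each is read 5′ to 3′ along the gene's strand.
Rsad2, chr12:26506522-26506611, minus strand: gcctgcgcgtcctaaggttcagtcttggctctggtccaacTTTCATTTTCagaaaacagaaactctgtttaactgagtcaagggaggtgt
Trim30a, chr7:104114387-104114476, minus strand: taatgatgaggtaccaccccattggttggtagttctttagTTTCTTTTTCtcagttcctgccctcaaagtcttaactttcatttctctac
Oas3, chr5:120915750-120915839, minus strand: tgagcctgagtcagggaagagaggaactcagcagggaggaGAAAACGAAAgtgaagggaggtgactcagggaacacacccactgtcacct
Oas1g, chr5:121025639-121025734, minus strand: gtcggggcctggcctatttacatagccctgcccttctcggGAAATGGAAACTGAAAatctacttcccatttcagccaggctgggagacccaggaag
Oas1a, chr5:121045553-121045648, minus strand: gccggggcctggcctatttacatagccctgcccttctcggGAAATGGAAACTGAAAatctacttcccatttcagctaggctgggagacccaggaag
Gbp3, chr3:142265720-142265815, plus strand: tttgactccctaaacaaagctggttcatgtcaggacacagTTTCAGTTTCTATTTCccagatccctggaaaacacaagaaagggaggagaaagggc

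In Oas1g, Oas1a and Gbp3 the capitals mark 2 overlapping matches. These stretches were chosen because they hold the motif. A match describes the letters of the window and is not evidence of binding. A comparison of motif shares between groups of genes is void here, because a window was found for 72 of the 94 interferon genes, which is under 80%.

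Rsad2, which encodes viperin, an enzyme that makes a chain terminator of viral RNA synthesis, had the smallest adjusted p. Its libraries held 104, 104.99 and 95.3 CPM with siErk3 and 25.8, 18 and 21.3 CPM with siMk5 (4.66-fold, log2 2.22 ± 0.10, edgeR FDR = 1.79e-15). The neighbouring Cmpk2, a nucleotide kinase that supplies viperin's substrate, had 45.1, 51.9 and 46.7 CPM against 12.4, 9.18 and 11.3 CPM (4.37-fold). The lowest siErk3 library was over 3 times the highest siMk5 library for both genes. Of 13 Ifit and Rsad2 group genes tested, 10 were higher (median log2 fold change 1.4). Ifit3, which stabilizes the RNA-binding Ifit1, was at 211, 245 and 242 CPM with siErk3 and 98.3, 69.9 and 81.9 CPM with siMk5. Ifit1 and Ifit2 were each 1.88-fold higher and Ifi44 3.38-fold.

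Of 9 genes of the 2-5A synthetase pathway, 7 were higher (median log2 fold change 1.29). Oas3, the synthetase with highest affinity for long double-stranded RNA, had 17.1, 19 and 21.2 CPM with siErk3 and 3.51, 2.94 and 4.44 CPM with siMk5 (5.28-fold, log2 2.40 ± 0.14, edgeR FDR = 3.65e-13). Oas1a had 32.5, 31.3 and 31.1 CPM against 8.05, 4.47 and 8.93 CPM (4.44-fold). Oas1g was 6.33-fold higher and Oas2 3.51-fold higher. The promoters of Oas1a and Oas1g printed above are nearly alike, and the transcripts of such copies are too. As pairs mapped to 2 places could enter the counts, the split of reads within the Oas1, Ifit, Gbp, Tgtp, Schlafen, Ifi200 and H2 families is uncertain. Oas1c (log2 0.99) did not pass.

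Among 19 interferon-inducible GTPases, proteins that attack viruses or the membranes of vacuoles, 17 were higher and the median log2 fold change was 1.5, the highest of the lists. Mx1, which traps viral nucleoprotein, had 12.2, 12.3 and 12.1 CPM with siErk3 and 3.46, 2.75 and 3.30 CPM with siMk5 (3.84-fold). Iigp1 was 4.06-fold higher, with 61.8, 73.2 and 76.8 CPM against 20, 14 and 18.2 CPM. Gbp3, a guanylate-binding protein, was 3.01-fold higher and Igtp 2.52-fold higher. Gbp8 (log2 -0.12) and Gbp11 (log2 1.93) did not pass.

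Of 12 genes of ISGylation and interferon-induced ADP-ribosyltransferases, 11 were higher (median log2 fold change 0.93). Isg15, the ubiquitin-like modifier, had 121, 125 and 124 CPM with siErk3 and 60.3, 40 and 49.3 CPM with siMk5 (2.48-fold). Usp18, which removes Isg15 and restrains the receptor, was 2.78-fold higher, and Parp14 2.13-fold. Of 21 further antiviral effectors, 17 were higher with a median of 1.00. Trim30a, of the Trim ubiquitin ligase family, led them with 41.5, 49.3 and 51.7 CPM against 8.81, 6.15 and 12 CPM (5.32-fold). Slfn5 was 4.8-fold higher, Phf11d 2.97-fold, the nuclear body protein Sp100 2.64-fold and Bst2, which tethers budding virus to the cell, 2.69-fold. The membrane proteins Ifitm1 (log2 -0.51) and Ifitm2 (log2 0.06) and the nuclease Isg20 (log2 0.15) did not pass, whereas Ifitm3 was 1.33-fold higher.

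Of 18 genes of MHC class I presentation, 14 were higher and the median log2 fold change was 0.60. B2m, the light chain of every class I molecule, had 363, 373 and 376 CPM with siErk3 and 251, 236 and 244 CPM with siMk5, a 1.52-fold difference with no overlap. H2-K1 was 1.69-fold higher, the peptide transporter gene Tap1 2.34-fold, the immunoproteasome gene Psmb8 3.18-fold and Nlrc5, the class I transactivator, 2.49-fold. Per kilobase of exon, B2m and Ifitm3 were the most abundant of the 94 interferon genes that passed. Both had 431 CPM per kb in siErk3 PA, against 283 and 323 in siMk5 PA, and Isg15 followed with 176 against 70.9. Interferon genes that did not pass were not ranked.

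**Figure D2:**
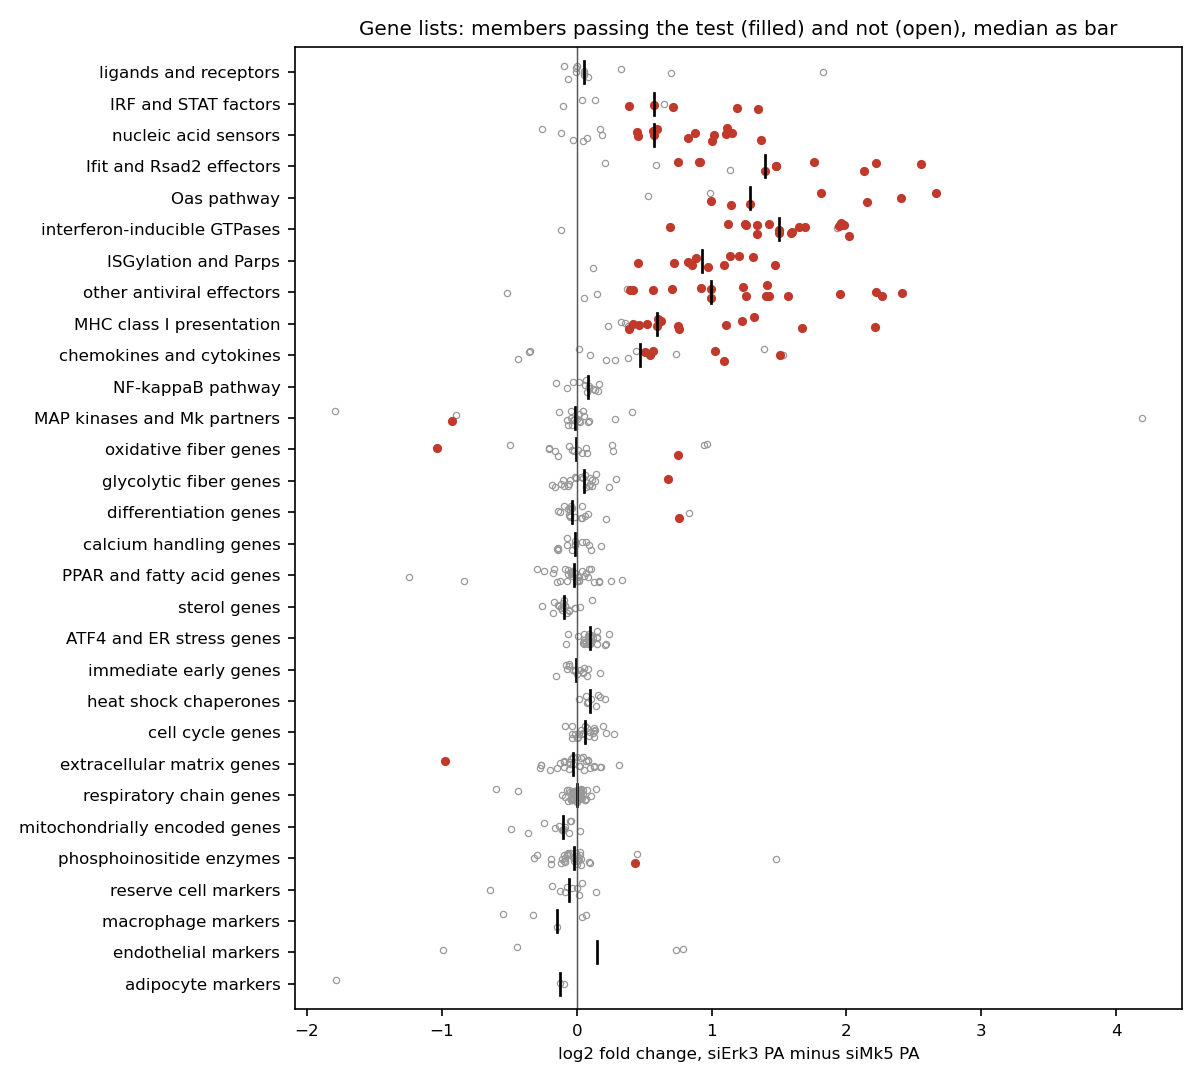
Log2 fold change of siErk3 PA against siMk5 PA for each tested member of the 30 lists, 1 point per gene, filled where it passed the test, with the list's median as a bar. The interferon lists from IRF and STAT factors to MHC class I have medians of 0.57 to 1.5, and the ligands and receptors (0.05) and the lists of muscle, metabolism and stress lie near 0.

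Of 18 chemokines and cytokines, 6 were higher with siErk3. Cxcl10, an attractant of T cells, had 110, 107 and 93.9 CPM against 59.8, 44.1 and 41.8 CPM (2.13-fold). Cxcl9, with the same receptor, was 2.85-fold higher and Ccl5 2.04-fold. Ccl2, Ccl7 and Il6 differed by less, at 1.48-, 1.42- and 1.46-fold. None of 14 genes of the NF-kappaB pathway passed in edgeR or DESeq2 (1 had an unadjusted p under 0.05), with a median of 0.08.

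Each knockdown was also set beside siNtc in PA. These comparisons share libraries with the one above, so that their values are given side by side only. The siErk3 and siNtc libraries differed in 121 genes (0.556% of those tested) and the siMk5 and siNtc libraries in 119 genes (0.547%). Over the 121 interferon genes the median log2 fold change was 0.30 for siErk3 against siNtc, with 31 called, and -0.64 for siMk5 against siNtc, with 74 called. Rsad2 had 30.8, 29.5 and 37.5 CPM in siNtc, nearer to siMk5 than to siErk3, and gave log2 values of 1.64 for siErk3 and -0.58 for siMk5. Stat2 had 174, 156 and 169 CPM in siNtc, a log2 value of 0.14 for siErk3 (edgeR FDR = 0.56) and of -0.58 for siMk5 (edgeR FDR = 7.9e-07). Oas3 lay between, with 1.16 for siErk3 and -1.24 for siMk5. The siNtc level thus lay at a different place between the knockdowns from gene to gene, and differences between genes in that place were not tested.

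**Figure D3:**
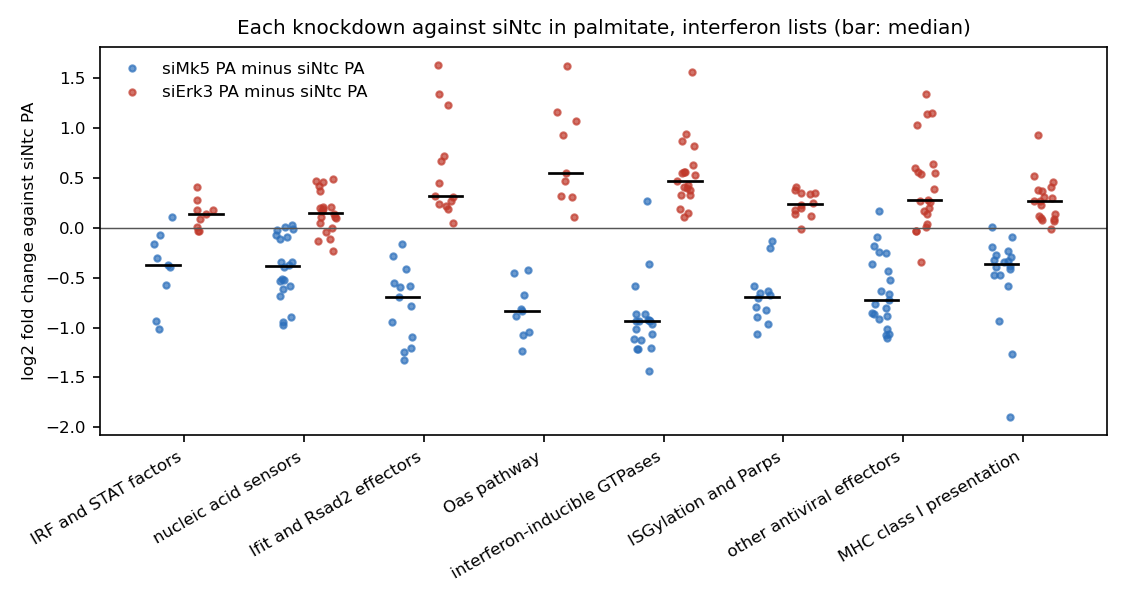
Log2 fold change of siMk5 PA and of siErk3 PA against siNtc PA for the members of the 8 interferon lists, 1 point per gene with the list's median as a bar. Most siErk3 points lie above 0 (median over all lists 0.30) and most siMk5 points below 0 (median -0.64); both use the same siNtc libraries.

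Beyond the interferon lists, 92 genes were higher with siErk3. Several of those with the smallest adjusted p are known as interferon-inducible although they were on no list. Samd9l, a translation-blocking antiviral factor, had 163, 167 and 170 CPM with siErk3 and 95.3, 74.4 and 81.1 CPM with siMk5 (1.99-fold). Tor3a, an ATPase of the endoplasmic reticulum, had 340, 328 and 313 CPM against 216, 195 and 208 CPM (1.58-fold). Ly6e was 1.73-fold higher, Rnf213 1.84-fold, Apol9a 2.08-fold, Znfx1 1.49-fold, Gbp2b 2.86-fold, Iigp1c 5.28-fold and F830016B08Rik 3.86-fold.

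A pair of sarcomere genes stood among the same 12. Myh8, the perinatal myosin heavy chain, had 387, 365 and 345 CPM with siErk3 and 220, 220 and 208 CPM with siMk5 (1.70-fold, log2 0.76 ± 0.06, edgeR FDR = 2.85e-11). Mybpc1, the slow form of myosin-binding protein C, had 85.5, 80.4 and 80.6 CPM against 50.5, 49.0 and 46.4 CPM (1.69-fold). For both genes siNtc, at 241 ± 5.09 and 58.2 ± 1.23 CPM (SD, n = 3), was nearer to siMk5 than to siErk3. The calcium-buffering Pvalb was 1.60-fold higher. A further set was chosen after its values were seen, as genes that passed the test between siErk3 and siNtc but not between siMk5 and siNtc. Nrk, a kinase of the germinal center family, had 1.84, 1.95 and 1.54 CPM with siErk3, 0.315, 0.140 and 0.464 CPM with siMk5 and 0.495, 0.137 and 0.303 CPM with siNtc. The matrix protein gene Frem2 (log2 0.72), the microtubule-binding Dcx (1.16), Upk1b (1.00) and Klhl13 (0.53) had the same arrangement.

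The 38 genes lower with siErk3 were on no interferon list. After Mapk6 itself, Myl2, the slow ventricular myosin light chain, had 3.5, 3.76 and 3.08 CPM with siErk3 and 6.56, 6.80 and 8.10 CPM with siMk5 (2.05-fold lower). Car3, a carbonic anhydrase of slow muscle, had 2.50, 3.11 and 2.13 CPM against 4.18, 4.47 and 5.62 CPM. The growth factor-induced matrix gene Tgfbi was 1.97-fold lower, at 0.876 ± 0.14 CPM against 1.72 ± 0.12 CPM (SD, n = 3). Cd28, a T cell costimulator, had 2.98, 2.75 and 2.48 CPM with siErk3 against 4.90, 4.52 and 5.31 CPM with siMk5. Ncf1, a subunit of the phagocyte NADPH oxidase, had 7.97, 5.57 and 5.11 CPM against 11.1, 9.5 and 10.5 CPM, and the chemokine receptor gene Cxcr6 was 1.60-fold lower. Aldh3b3, Klhdc8b and Podnl1 were 1.90-, 1.45- and 1.42-fold lower, and Unc13d, Slc49a3, Col25a1, Tspan32 and Padi2 between 1.3- and 1.36-fold lower. Vdac3-ps1, a pseudogene, had 1.01, 0.869 and 0.993 CPM with siErk3 and 5.08, 4.8 and 1.19 CPM with siMk5, so that 1 siMk5 library lay near the siErk3 level.

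**Figure D4:**
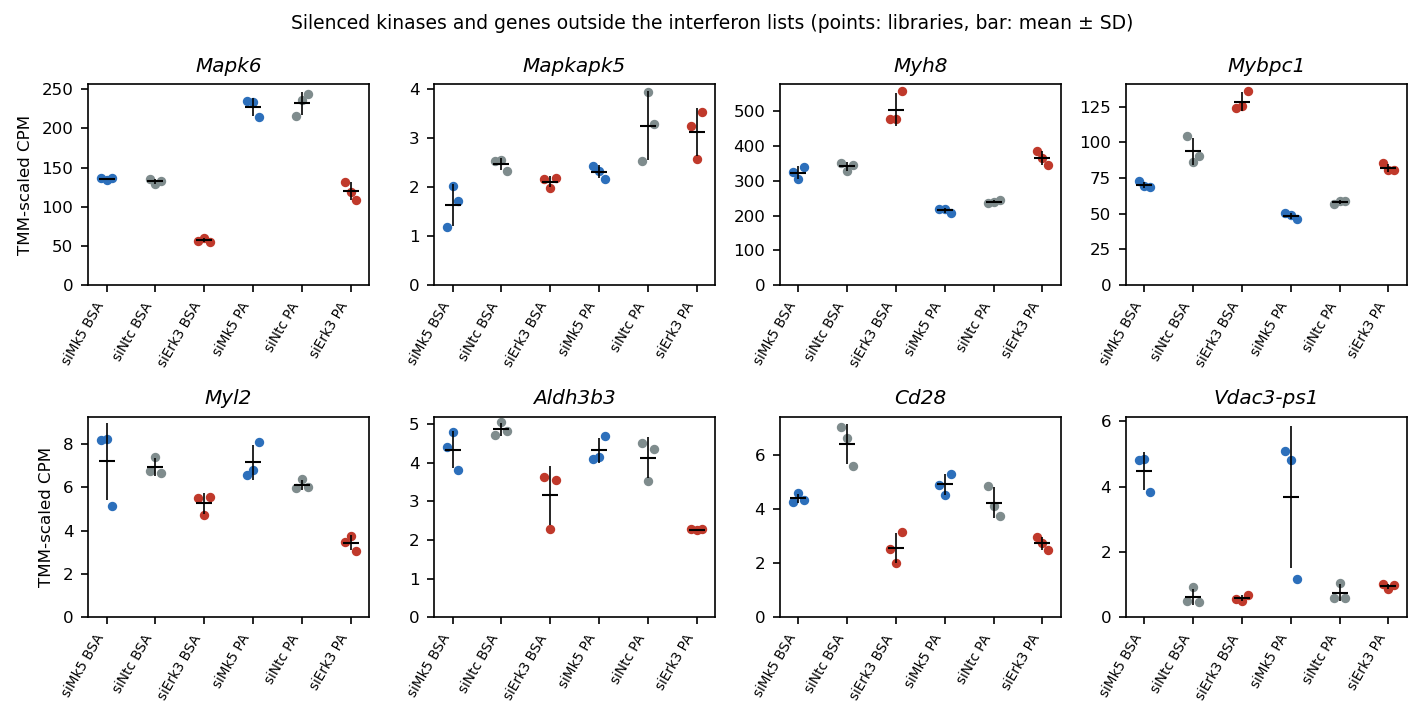
Levels in CPM of Mapk6, Mapkapk5 and 6 genes outside the interferon lists in each library of siMk5, siNtc and siErk3 with BSA and with PA, as points with the mean and SD of 3 libraries. Myh8 and Mybpc1 are higher and Myl2, Aldh3b3 and Cd28 lower with siErk3 PA than with siMk5 PA, and 1 siMk5 PA library of Vdac3-ps1 (1.19 CPM) lies near the siErk3 level.

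Of 18 oxidative fiber genes, Mybpc1 was higher and Myl2 lower, and 1 of 24 glycolytic fiber genes (Pvalb) and 1 of 20 differentiation genes (Myh8) were higher. At an unadjusted p under 0.05 these 3 lists held 11, 11 and 4 genes, where 10.2% of all genes tested had such a p. The libraries did not overlap in 11 of 18 oxidative, 14 of 24 glycolytic and 6 of 20 differentiation genes, against 14.7% of all genes tested. The medians of the fiber lists were -0.0047 and 0.06. Myh3, the embryonic myosin, was 1.16-fold higher with siErk3 (edgeR FDR = 0.0185), which is below the fold limit. None of 53 nuclear genes of the respiratory chain passed in edgeR (median log2 fold change 0.0008), and neither did any of 13 mitochondrially encoded genes (median -0.10), 34 PPAR and fatty acid genes (-0.02), 19 sterol genes (-0.10), 30 ATF4 and ER stress genes (0.10), 14 calcium handling genes, 16 immediate early genes, 10 heat shock chaperones or 23 cell cycle genes. At an unadjusted p under 0.05 these 9 lists held 2, 1, 7, 8, 7, 5, 1, 3 and 4 members in that order, against the same 10.2% over all genes, and DESeq2 called 0 in each of them. Larger shares were held by the sterol (8 of 19), calcium handling (5 of 14), heat shock (3 of 10) and ATF4 and ER stress (7 of 30) lists. The PPAR and fatty acid (7 of 34) and cell cycle (4 of 23) lists were also above it. The respiratory chain (2 of 53), mitochondrially encoded (1 of 13) and immediate early (1 of 16) lists held smaller ones. Below 0 lay 17 of 19 sterol and 12 of 13 mitochondrially encoded genes. Above 0 lay 28 of 30 ATF4 and ER stress genes, 10 of 10 heat shock chaperones and 18 of 23 cell cycle genes. Among 22 MAP kinases and their partners the called gene was Mapk6, among 34 phosphoinositide enzymes it was Plcg2 (1.352-fold higher), and among 31 matrix genes it was Tgfbi.

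Markers of other cells were examined beside these counts. None of 10 reserve cell, 5 macrophage, 4 endothelial or 3 adipocyte markers passed in edgeR or DESeq2. At an unadjusted p under 0.05 were 3, 0, 1 and 0 of them, against 10.2% of all genes tested. The libraries did not overlap in 3, 0, 3 and 0 of them, against 14.7% of all genes tested. The summed level of the reserve cell markers was 1094 to 1146 CPM with siErk3 and 1121 to 1148 CPM with siMk5, and that of the macrophage markers 8.06 to 8.65 and 7.79 to 8.99 CPM. Endothelial markers summed to 1.05 to 1.27 and 0.722 to 1.39 CPM, and adipocyte markers to 18.7 to 23.9 and 21.7 to 25 CPM. The ranges of these sums overlapped in each case, and the defining markers Ptprc, Adgre1, Tyrobp, Tie1 and Adipoq were under the count filter.

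Some of the genes that were higher with siErk3 lay near each other in the genome. In 10 runs, 4 or more called genes followed each other with gaps of at most 250 kb, and these runs held 57 of the 224 genes (25.4%), all higher with siErk3. The longest, on chromosome 1, holds the Ifi200 family of DNA sensors, with 11 of 15 tested genes called. At chr17:34134873-34435295 (GRCm39) in the major histocompatibility complex, 7 of 26 were called, from Tapbp to Tap2. The guanylate-binding genes at chr3:142199739-142343769 were called in 5 of 5, the Oas genes at chr5:120868398-121045584 in 5 of 6, the Schlafen genes at chr11:82842175-82961504 in 5 of 7 and the Ifit genes at chr19:34528094-34627409 in 4 of 6. Neighbours in a run are in part copies of each other and can share reads. The runs were defined by the called genes themselves. How often an equal number of tested genes would form such runs was not tested, so the 25.4% has no background.

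The same comparison in BSA rests on other libraries and called 128 genes (0.588%). In BSA the 18S share did not overlap between the groups, as given above, and with it as a covariate, added after the data were seen, 78 genes were called, 73 of them also called in PA in the same direction. The genes called in both media in the same direction numbered 88, which is 39.3% of the PA genes and 68.8% of the BSA genes, and 0 were called in opposite directions by edgeR or by DESeq2. Of the 186 genes higher with PA, 178 were also above 0 in BSA (95.7%), and of the 38 lower genes 35 were also below 0 (92.1%), while 57.2% of all genes had the same sign in both media. The median log2 fold change in BSA was 0.58 for the former and -0.25 for the latter. Among the 88 were 51 interferon genes. Interferon gene levels were lower without PA, with a mean log2(CPM + 0.5) of 3.29, 3.10 and 3.00 with siErk3 and of 2.52, 2.55 and 2.66 with siMk5, and siErk3 was again above. Rsad2 had 2.45, 1.22 and 1.18 CPM with siErk3 and 0.262, 0.252 and 0.0516 CPM with siMk5 in BSA (log2 3.01 ± 0.47). Mapk6, Vdac3-ps1, Cd28, Col23a1 and Gm22303 were lower with siErk3 in both media, the last pair named for completeness after their values were seen.

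**Figure D5:**
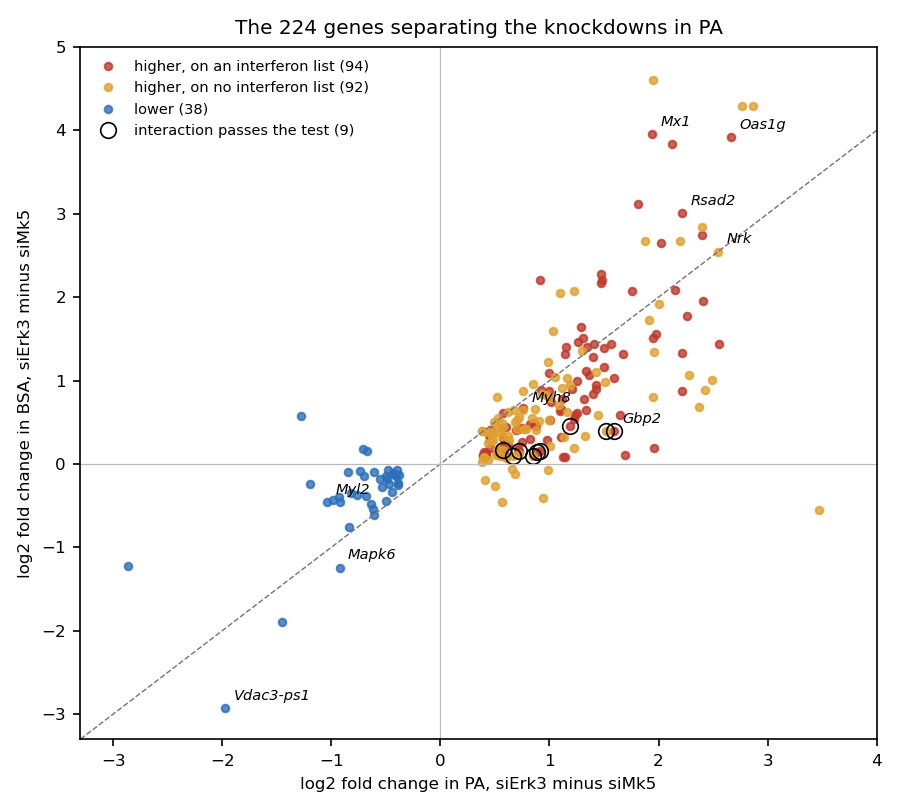
Log2 fold change of siErk3 against siMk5 in PA (horizontal) and in BSA (vertical) for the 224 genes called in PA, 1 point per gene, with a dashed line where both are equal. Most genes lie on the same side of 0 in both media, and the 9 ringed genes, whose interaction with PA passed, lie below the line near 0 in BSA.

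The interaction, which tests whether the difference between knockdowns itself changed with PA, called 16 genes (0.0735%). In all of them the signed log2 fold change was higher in PA. Called in PA were 9 of them, among them Tor3a, Parp12, Ifit2, Gbp2, Znfx1, Ly6a, Gbp2b and Parp10. The other 7 were lower with siErk3 in BSA and differed more there, as did Rn18s-rs5 (log2 -2.48 in BSA and 0.39 in PA). Tor3a had 97.9, 90.7 and 92.7 CPM with siErk3 and 88.7, 85.5 and 89.6 CPM with siMk5 in BSA, a log2 fold change of 0.09 against 0.66 in PA (interaction 0.57 ± 0.07, edgeR FDR = 7.66e-05). Parp12 had 0.15 in BSA and 0.88 in PA (interaction 0.74 ± 0.09, edgeR FDR = 9.98e-05), and Gbp2 0.39 and 1.59. For Rsad2 and Cmpk2 the interaction was -0.79 and -1.71 and did not pass. With the 18S share as a covariate, the interaction called 1 gene, Oas2, whose value was -2.55, a smaller difference in PA. Rn18s-rs5, whose share is the covariate, cannot be judged in that fit. None of the other 15 genes passed in edgeR, and 7 of them had an unadjusted p under 0.05. In BSA the 18S share did not overlap between the knockdowns, so that fit cannot well separate the share from the knockdown. With it the SE rose for Tor3a (0.07 to 0.11) and Gbp2 (0.19 to 0.32) and fell for Lars2 (0.40 to 0.19). A lost call is therefore not evidence that a difference is absent. Values of 0.48 for Tor3a, 0.67 for Ifit2 and 1.11 for Gbp2 were near those without the covariate (0.57, 0.76 and 1.20), while Ly6a fell from 0.76 to 0.28 and Parp10 from 0.57 to 0.20. The same covariate left 212 genes called in PA, 192 of them among the 224.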

How the data were processed

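The authors deposited raw counts of read pairs for each gene in the 18 libraries, with totals from 13041979 to 28496727. According to the methods and the table header, reads were trimmed and aligned with STAR to GRCm39, and the authors counted them with featureCounts 2.0.0 on the Ensembl 105 annotation with strand setting 2 and a minimum mapping quality of 3. The labels name mm10 as the build, and the coordinates of the count table were read as GRCm39. Pairs overlapping exons of more than 1 gene were left unassigned. A second deposited table of transformed values was not used here. Columns belonging to other samples numbered 0.

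Groups came from the treatment labels. Genes were kept from a total of 10 counts upwards, and 21601 of the 21772 have a name in GENCODE M39. Libraries were normalized by TMM and fitted with edgeR 4.0.16 (limma 3.58.1, R 4.3.3), a quasi-likelihood model with 1 coefficient per group over all 18 libraries. Adjusted p-values (FDR) are by the Benjamini-Hochberg method over all genes tested, and genes were called at an FDR below 0.05 with a fold change above 1.3. The filter and both limits are those of the methods, which used DESeq2. DESeq2 1.42.0 was run here as an alternative. CPM values use TMM-scaled library sizes. SDs are over 3 libraries, and counting error weighs most on genes with few counts. The fit was tested on simulated data.

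The gene lists and the comparison were chosen with earlier results of these data known. Genes were named by rule, as Mapk6 and Mapkapk5, list members with the smallest adjusted p or a defining role, the 15 higher and 15 lower genes with the smallest adjusted p whose libraries do not overlap, the 12 of the same kind in each direction on no interferon list, and the 10 with the smallest adjusted p of the interaction. Settings varied were the normalization, the count filter, the groups in the fit, the fold limit, the replicate block and the leaving out of each library, and an 18S share covariate was added after the data were seen. The values of 3 genes are not reported here.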

Additional observations from a re-analysis of the deposited data

Results flagged for a closer look

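The difference between siErk3 and siMk5 changed with PA in 16 genes by the interaction test of the edgeR fit (values are the log2 fold change in PA minus that in BSA). Among genes that differed between the knockdowns in PA, it was 0.57 for Tor3a, 0.74 for Parp12, 0.76 for Ifit2, 1.20 for Gbp2, 0.41 for Znfx1, 0.76 for Ly6a, 1.12 for Gbp2b and 0.57 for Parp10. In each of these 8 genes the value in BSA was between 0.09 and 0.39 and did not pass.

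A further 7 were not called in PA, and these were lower with siErk3 in BSA, where the difference was larger in size. The values were 2.87 for the 18S copy Rn18s-rs5, 2.81 for Rgs9, 2.54 for ENSMUSG00000118642, 2.54 for Mir6236, 2.51 for Gm15564 and 2.50 for Lars2, and 0.43 for the metallothionein gene Mt2. Rn18s-rs5 had 19935 ± 7204 CPM with siErk3 and 111110 ± 25619 CPM with siMk5 in BSA (SD, n = 3), and Lars2 508 ± 195 and 2223 ± 656 CPM. Lars2 encodes the mitochondrial leucyl-tRNA synthetase. Mt2 had 26.9 ± 0.67 and 33.6 ± 2.32 CPM in BSA. The 18S share did not overlap between the knockdowns in BSA, so a fit with it as a covariate cannot well separate share and knockdown. With the 18S share of each library as a covariate, chosen after seeing the data, none of the 15 genes other than Rn18s-rs5 passed in edgeR. The value was then -0.05 for Rgs9, 0.16 for Lars2, 0.18 for ENSMUSG00000118642, -0.20 for Gm15564 and -0.29 for Mir6236, so that these genes moved with the 18S share. It stayed at 0.42 for Mt2, and was 0.48 for Tor3a, 0.67 for Ifit2, 0.46 for Parp12, 1.11 for Gbp2, 0.98 for Gbp2b, 0.28 for Znfx1, 0.28 for Ly6a and 0.20 for Parp10 (edgeR FDR = 0.678 for Tor3a, the smallest of the 15).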

How the results depend on the processing

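The count of genes that differed in PA stayed between 179 and 336 under every alternative run (224 in the report), with 208 in DESeq2, 202 of them shared, and 212 with the 18S share as a covariate, an alternative chosen after seeing the data. Without a fold limit it was 336 and without the count filter 297. The lower genes were less stable, with 94 by FDR alone, 70 without the filter, 21 when only the groups compared were fitted and 12 to 55 when 1 library was left out, 12 without siMk5 PA replicate 3 and 21 without siErk3 PA replicate 2. The BSA comparison gave 201 genes without the filter and 78 with the 18S covariate. The interaction gave 78 without the filter, 1 with the 18S covariate and 10 to 33 with 1 library left out (33 without siErk3 PA replicate 1, 25 without siMk5 PA or siMk5 BSA replicate 1, 10 without siErk3 BSA or siMk5 BSA replicate 2). siErk3 against siNtc gave 186 by FDR alone and 208 without the filter. Signs were followed for Mapk6, Mapkapk5 and the 15 and 12 genes per direction named by adjusted p, 41 genes in PA. They were also followed for the 10 named genes of the interaction. None changed sign under DESeq2, its size factors, the fit of only the groups compared, the replicate block or with 1 library left out. Other genes named in the text were not followed one by one. With the 18S covariate the interaction values of Rgs9, Gm15564 and Mir6236 changed sign, at -0.05, -0.20 and -0.29. The median of 10 of 30 lists, 0 of them interferon lists, changed sign, from a range of -0.04 to 0.15 in the report (endothelial markers 0.15 to -0.06 without siMk5 PA replicate 3). Of the named lower genes, Unc13d and Slc49a3 were not called by DESeq2 or with its size factors, Slc49a3 not when only the groups compared were fitted, Unc13d not without siErk3 PA replicate 1, Padi2 not without siErk3 PA replicate 3, Unc13d, Slc49a3, Tspan32, Col25a1 and Padi2 not without siMk5 PA replicate 3, and Slc49a3, Tspan32 and Cxcr6 not without siErk3 PA replicate 2. The interaction of Znfx1 was not called without siMk5 PA replicate 2.

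The labels number the libraries 1 to 3 in each group. Same-numbered siErk3 and siMk5 PA libraries deviated together with r = 0.51, 0.04 and 0.43 over 10681 genes, and siErk3 PA replicate 2 correlated best with siMk5 PA replicate 3, so the numbers were not taken as pairs. With a replicate block, 224 genes were called in PA, 220 of them shared, and 130 in BSA. Counting error limits genes under about 1 CPM, such as Ifnb1.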

Other observations

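Gm18180, a gene chosen after its values were seen, was lower with siErk3 and had an uneven siMk5 group like Vdac3-ps1. Its PA libraries held 1.4, 1.41 and 1.19 CPM with siErk3 and 4.18, 3.73 and 1.81 CPM with siMk5, and the siNtc PA libraries 1.17, 1.19 and 1.26 CPM. For both genes siMk5 PA replicate 3 was the library nearest to the siErk3 level.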
